A study of Mus musculus with 72 samples.

Results

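The 8 libraries described here follow iXist-ChrX-Dom wild-type (WT) cells through the first week of neural differentiation, and compare the 4 libraries of days 5 and 7 with the 4 of days 2 and 3. They were chosen by title, line, genotype and day, and make up 8 of the 72 libraries of the series. The whole series profiled chromatin-associated RNA (ChrRNA-seq), the RNA still bound to chromatin and mostly newly transcribed, in mouse female embryonic stem cells (mESCs) of 2 reciprocal lines and of SmcHD1 knockout (KO) clones made from them. Both groups share everything but time. The cells carry one X chromosome of a 129/Sv-derived Mus musculus domesticus strain (Dom) and one of Mus musculus castaneus (Cast), and a tetracycline-inducible promoter replaces the Xist promoter on the Dom X. The study reports a recombination event in this line, which leaves some X-linked genes without allelic information. Doxycycline at 1 µg/mL was present from day 0, when the cells were moved from serum and LIF on feeders to N2B27 medium, and stayed until collection on day 2, 3, 5 or 7, with 2 replicates per day. The line is 1 clone. The inducible promoter means that Xist here does not follow its own developmental control, and no WT library without doxycycline was analysed here for this line.

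Pluripotent mouse cells in the naive state hold 2 active X chromosomes. Differentiation in N2B27, which contains neither LIF nor serum, withdraws the signals that keep the naive network running, and the cells pass through an epiblast-like state before neural genes come on, with Notch signalling holding neural precursors back from becoming neurons. X inactivation normally begins in the same window: Xist RNA coats the chromosome it is transcribed from and recruits the SPEN corepressor and the Polycomb complexes, and genes on that chromosome lose expression in cis. SmcHD1, a chromosomal protein that joins the inactive X late, completes silencing of many genes. The ratio of fragments on the inactive X (Xi) to all allelic fragments, Xi/(Xi+Xa) with Xa the active X, is near 0.5 when both alleles are expressed and 0 when the Xi allele is silent.

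Depth was 18357510 to 27685127 fragments per library, over 22556 genes of which 908 are X-linked. Levels below are RPM, fragments of a gene per 1000000 fragments counted in genes. RPM is not corrected for gene length, so values are compared between libraries and never between genes. Values are listed in the order day 2 replicate 1, day 2 replicate 2, then the same for days 3, 5 and 7. A gene was called when its edgeR quasi-likelihood test passed a Benjamini-Hochberg adjusted p of 0.05 over all genes tested, and the study describes its replicates as 2 time courses, so p-values measure the spread between time courses of 1 clone. Libraries with the same replicate number deviated together. A fit with the replicate number as a block is given where it changes the total-count call of a named gene.

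Of 15529 genes tested for total counts, 4158 were called: 2222 were higher on days 5 and 7 (14.3% of all genes tested) and 1936 were lower (12.5%). These shares are the background for the counts of every gene list below. The median log2 fold change over all genes was 0.01. With library totals in place of TMM scaling, 48.0% of calls were in the higher direction, against 53.4% with TMM, and the median moved to -0.03. Because these are bulk libraries, fewer cells of a type and less RNA per cell cannot be told apart.

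The genes that rose the most included the mesendoderm factor T (Brachyury), the smooth muscle actin Acta2, the adhesion protein Pcdh7 and the matrix protein Thbs1. T (chr17:8434422-8442496, mm10) was at 0.474, 0.436, 1.41 and 0.647 RPM on days 2 and 3 and at 79.6, 6.89, 133 and 53.1 RPM on days 5 and 7. Every late library was above every early one, but day 5 replicate 2 lay far below the other 3 late libraries. The log2 fold change was 6.53 ± 0.86 (SE, n = 4 and 4, edgeR adjusted p = 0.00202). Pcdh7 was at 12.7, 11.3, 31.9 and 13.8 RPM early and at 594, 168, 1391 and 656 RPM late, again with day 5 replicate 2 lowest of the late libraries and with no overlap (log2 fold change 5.27 ± 0.51, edgeR adjusted p = 0.000654). Thbs1 went from 4.74, 2.83, 8.89 and 8.50 RPM to 82.5, 149, 209 and 220.1 RPM, and here replicate 2 was the higher of the pair on days 5 and 7 (4.81 ± 0.27, edgeR adjusted p = 0.000226). The rest of the 10 largest rises among genes with a mean of at least 5 RPM and no overlap between groups were the long non-coding B230323A14Rik (5.58), Acta2 (5.43), the protease Prss23 (4.09), the transcription factor Sp8 (4.05), the X-linked protocadherin Pcdh11x (3.99), the simple-epithelial keratin Krt8 (3.88) and the actin-binding Tagln (3.87), all as log2 fold changes.

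The 10 largest falls were smaller, from -2.90 to -3.72 on the log2 scale. Slfn9, a member of the Schlafen family, was at 45.1, 27.9, 21.2 and 15.0 RPM early and at 5.31, 3.67, 0.946 and 1.16 RPM late, a steady decline in both replicates (log2 fold change -3.53 ± 0.25, edgeR adjusted p = 0.000266). Aoah, an acyloxyacyl hydrolase gene, fell from 173, 110.4, 116 and 68.9 RPM to 41.5, 28.1, 7.64 and 4.70 RPM (-2.93 ± 0.28, edgeR adjusted p = 0.000594). The X-linked deubiquitinase gene Usp26 had the largest fall (-3.72), followed after Slfn9 by the protease gene Tmprss11d (-3.43), the serpin gene Serpina3m (-3.07), 4930526L06Rik (-3.04), the septin gene Sept1 (-3.02), the sodium-coupled transporter gene Slc5a11 (-3.0), 4933406J08Rik (-2.98) and Mboat4 (-2.90), which encodes the enzyme that acylates ghrelin. These 10 were chosen among genes with no overlap between the groups.

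**Figure D1:**
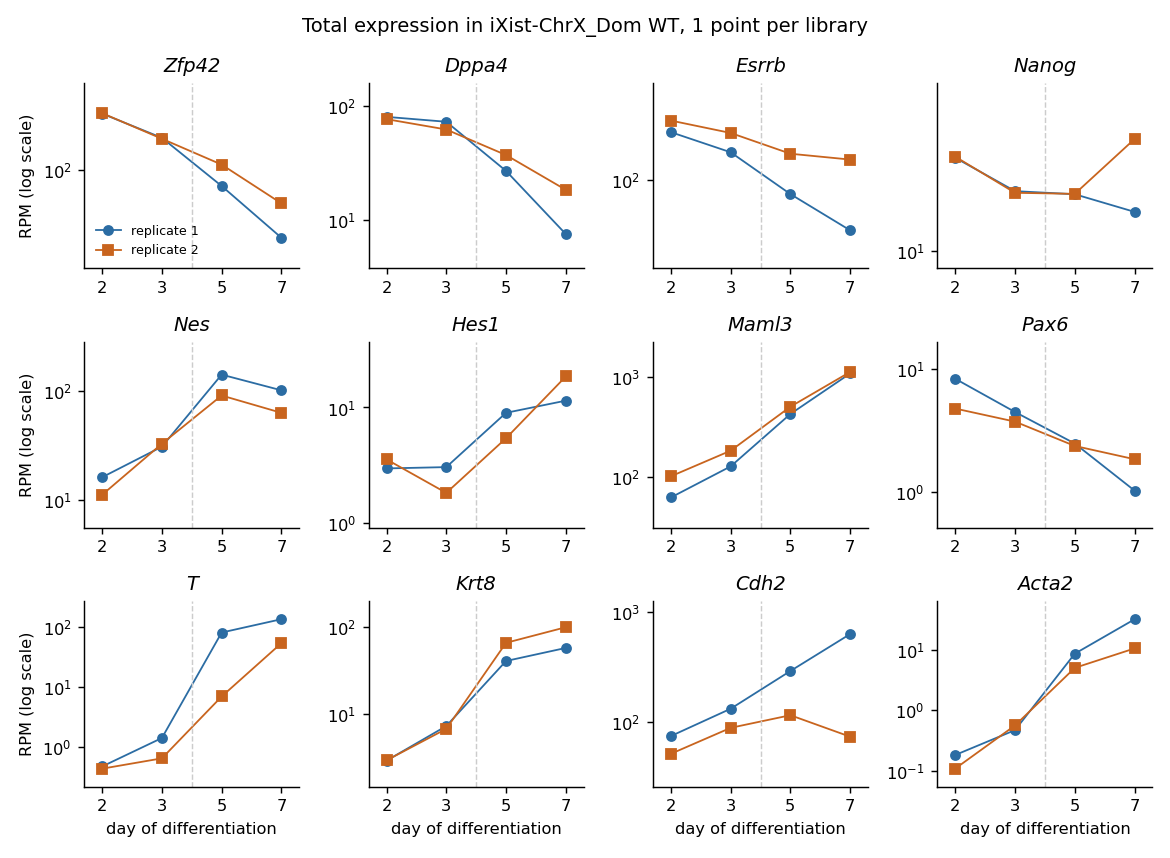
RPM (log scale) of 12 genes against day of differentiation, with 1 point per library, replicate 1 as circles and replicate 2 as squares, and a dashed line between the 2 periods. Zfp42 and Dppa4 declined in both replicates, Nanog ended highest in day 7 replicate 2 (39.3 RPM), and Cdh2 rose in replicate 1 to 631 RPM but stood at 73.0 RPM in day 7 replicate 2.

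Of the 20 naive pluripotency genes tested, 9 were called lower, none higher and 11 were not called, with a median log2 fold change of -1.04. Zfp42 (Rex1, chr8:43295066-43307009), a reporter of the naive state, was at 361, 365, 209 and 204 RPM early and at 69.9, 114, 21.6 and 47.2 RPM late, a 4.73-fold fall with no overlap (log2 fold change -2.24 ± 0.26, edgeR adjusted p = 0.00127). Fgf4, the autocrine signal that moves naive cells towards differentiation, went from 57.9, 67.7, 42.4 and 39.1 RPM to 13.8, 21.6, 5.20 and 12.5 RPM (-1.97 ± 0.27, edgeR adjusted p = 0.00239). In both genes replicate 2 kept more expression than replicate 1 on days 5 and 7. Tcl1, a coactivator of AKT, fell by 1.97 and the nuclear receptor gene Nr0b1 by 1.59 on the log2 scale, the latter with overlapping libraries.

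Day 7 replicate 2 set how many naive genes were called. Without it 18 of the 20 were called lower (median -1.53), whereas the count ran from 5 to 9 without any other single library: 5 without day 2 replicate 1, day 3 replicate 2 or day 5 replicate 1, and 6 without day 3 replicate 1. Nanog, a central factor of the naive network, was at 31.2, 31.6, 20.7 and 20.3 RPM early and at 20.0, 20.1, 16.1 and 39.3 RPM late. The libraries overlapped because day 7 replicate 2 was the highest of the 8, and the log2 fold change was -0.07 ± 0.24 (edgeR adjusted p = 0.854). Leaving that library out gave -0.45 (edgeR adjusted p = 0.0377). Esrrb, another naive factor, was not called (-1.10 ± 0.39, edgeR adjusted p = 0.0743) at 238, 294, 165 and 235 RPM early and 76.9, 161, 39.7 and 144 RPM late, although the groups did not overlap. It was called with the replicate block (-1.26, edgeR adjusted p = 0.00472) and without day 7 replicate 2 (-1.69, edgeR adjusted p = 0.0055). The junction gene Jam2 had the same pattern (-0.99, not called), with calls under the block (-1.15, edgeR adjusted p = 0.00877), without day 5 replicate 2 (-1.38, edgeR adjusted p = 0.0383) and without day 7 replicate 2 (-1.50, edgeR adjusted p = 0.00835). Klf2, which is among the first naive factors to go, stood at 14.6, 8.66, 8.16 and 6.08 RPM early and at 6.21, 5.08, 1.46 and 4.03 RPM late. Its fall of 1.19 ± 0.33 on the log2 scale (edgeR adjusted p = 0.0321) was lost without day 2 replicate 1, either day 3 library or either day 5 library (edgeR adjusted p = 0.0592 to 0.113), and the call of Nr0b1 without day 2 replicate 1, day 3 replicate 2 or day 5 replicate 1 (0.0730 to 0.0866).

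The core pluripotency list showed 7 lower, 6 not called and none higher among 13 tested (median -0.87). With the replicate block 11 were lower and 1 higher, and without a single library the count of lower genes ran from 3 (day 3 replicate 2 or day 5 replicate 1) through 4 (day 2 replicate 1) to 10 (day 7 replicate 2). Dppa4, an early-embryo chromatin factor, went from 80.2, 76.6, 72.6 and 62.1 RPM to 26.9, 37.1, 7.49 and 18.3 RPM (log2 fold change -1.80 ± 0.26, edgeR adjusted p = 0.0029). Its partner gene Dppa2 fell by 2.17 and L1td1, an RNA-binding protein gene, by 1.09 on the log2 scale, both without overlap. The TGF-beta family ligand gene Gdf3 fell by 1.56, a call lost without either day 2 library, day 3 replicate 2 or day 5 replicate 1 (edgeR adjusted p = 0.0617 to 0.0678). Pou5f1 (Oct4), the factor common to naive and primed cells, was at 82.3, 64.8, 63.7 and 64.9 RPM early and at 67.9, 53.9, 29.1 and 45.9 RPM late. Only day 5 replicate 1 overlapped the early range, and the log2 fold change of -0.49 (edgeR adjusted p = 0.0633) passed with the block (-0.49, edgeR adjusted p = 0.0437) and without day 7 replicate 2 (edgeR adjusted p = 0.0175). The microRNA-binding protein gene Lin28a was not called (0.36), although it was higher with the block (0.37, edgeR adjusted p = 0.0239) and without day 2 replicate 1 (0.57, edgeR adjusted p = 0.046). Not called either was Zfp281 (-0.22, block -0.23 with edgeR adjusted p = 0.0413). Sox2 was listed at 0 in all 8 libraries. It lies inside Sox2ot on the same strand in the files, so this value says nothing of its expression.

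Among formative and primed epiblast genes 1 rose, 6 fell and 8 were not called (15 tested, median -0.35), and 3 rose with the block or without day 7 replicate 2. Dnmt3b, the de novo DNA methyltransferase of the epiblast, was at 611, 597, 606 and 657 RPM early and at 322, 338, 138 and 162 RPM late, with the replicates within each day close together (log2 fold change -1.43 ± 0.11, edgeR adjusted p = 0.00033). Fgf15 fell by 1.45, as did Foxd3, both on the log2 scale, and the keratin gene Krt18 rose by 3.17. Fgf5, the textbook marker of the primed epiblast, was at 31.6, 17.6, 36.2 and 35.4 RPM early and 73.6, 32.2, 72.4 and 38 RPM late. Both late libraries of replicate 1 lay above all early ones, whereas replicate 2 stayed inside the early range on day 5 and just above it on day 7. The change of 0.89 (edgeR adjusted p = 0.0762) passed with the block (0.82, edgeR adjusted p = 0.00751), without day 5 replicate 2 (1.11, edgeR adjusted p = 0.0379) or without day 7 replicate 2 (1.09, edgeR adjusted p = 0.0319). The Wnt effector gene Lef1 was not called (-0.05).

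Of 20 neural precursor and radial glia genes tested, 11 were higher, 2 lower and 7 not called, with a median log2 fold change of 1.17. Pax6, which is in this list and in the early neural induction list below, was among the 2 that were lower. Nes (nestin, chr3:87971092-87980451), the intermediate filament of neural precursors, was at 16, 11.1, 30.6 and 32.5 RPM early and at 140.2, 90.2, 101 and 62.5 RPM late. All late libraries exceeded all early ones, and day 5 exceeded day 7 in both replicates (4.79-fold, log2 fold change 2.26 ± 0.23, edgeR adjusted p = 0.000749). Hes1, the Notch target that represses proneural genes, went from 2.96, 3.54, 3.03 and 1.81 RPM to 8.98, 5.41, 11.5 and 18.6 RPM (1.92 ± 0.26, edgeR adjusted p = 0.00229). The Notch-modifying glycosyltransferase gene Lfng rose by 1.73 and Sox6 by 1.47 on the log2 scale, Sox6 with overlap. Vim (vimentin) was at 25.6, 22.2, 18.9 and 17.7 RPM early and at 61.4, 25.9, 88.5 and 33.1 RPM late, so that replicate 2 rose far less than replicate 1. Its log2 fold change of 1.34 ± 0.35 (edgeR adjusted p = 0.0259) lost its call without any library of days 2 and 3 or without day 5 replicate 1 (edgeR adjusted p = 0.0727 to 0.0934). The glutamate transporter gene Slc1a3 was not called (-0.53) but fell with the block (-0.58, edgeR adjusted p = 0.0166) and without day 7 replicate 2 (-0.77, edgeR adjusted p = 0.0253). Over single left-out libraries 9 to 16 of the list were higher, 16 without day 7 replicate 2.

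Of 17 early neural induction genes tested, 3 rose, 2 fell and 12 were not called (median 0.50), shares near those over all genes. Without day 7 replicate 2, 7 rose, and without day 3 replicate 2, 1. Zfp521, which can start neural conversion, went from 57.1, 50.0, 119 and 99.6 RPM to 239, 140, 473 and 200.2 RPM with no overlap (log2 fold change 1.76 ± 0.29, edgeR adjusted p = 0.00438). Pax6, a factor of neuroectoderm and of radial glia, fell: it was at 8.28, 4.74, 4.44 and 3.71 RPM early and at 2.46, 2.35, 1.02 and 1.83 RPM late, declining in both replicates (-1.45 ± 0.28, edgeR adjusted p = 0.00876). Irx3 and Nr2f2, both at 3.31 RPM or less in every library, rose by 2.57 and 1.75. The call of Irx3 was lost without 4 single libraries (day 2 replicate 2, either day 3 library or day 5 replicate 1, edgeR adjusted p = 0.0571 to 0.0836) and that of Nr2f2 without day 3 replicate 2 or day 5 replicate 2 (0.0635 to 0.0749). Sox11 was not called at 0.61 (block 0.53, edgeR adjusted p = 0.0191, and 0.84 without day 7 replicate 2, edgeR adjusted p = 0.0376). Sox1, the first neuroectoderm-specific Sox gene, was listed at 0 in all 8 libraries, which is not read as absence of expression.

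Meis2 and Cdh2 separated the replicates. Meis2, a homeobox cofactor, was at 34, 29.9, 33 and 32.1 RPM early and at 44.8, 36.4, 199 and 35.4 RPM late, high in day 7 replicate 1 alone (log2 fold change 1.14, edgeR adjusted p = 0.0943, and 1.52 without day 7 replicate 2, edgeR adjusted p = 0.000354). Cdh2 (N-cadherin), which replaces E-cadherin in neuroepithelium, was at 74.0, 51.0, 131 and 88.0 RPM early and at 290.3, 115, 631 and 73.0 RPM late. Replicate 1 rose by 2.18 and replicate 2 by 0.51 on the log2 scale. The joint value of 1.72 ± 0.60 was not called (edgeR adjusted p = 0.0677), and was with the block (1.42, edgeR adjusted p = 0.0218) or without day 7 replicate 2 (2.14, edgeR adjusted p = 0.00271). Cdh1 (E-cadherin) stayed between 304 and 442 RPM in all 8 libraries and was not called (0.22).

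Of 21 proneural and neuronal genes tested 2 rose, 5 fell and 14 were not called (median -0.32), beside 14.3% higher and 12.5% lower over all genes tested. The proneural factor gene Neurod1 fell by 1.52 and Pou4f1, a sensory neuron factor gene, by 1.58, each at 5.07 RPM or less throughout. The neurofilament gene Nefm rose by 2.44 from 0.365 to 1.59 RPM early to 4.13 to 5.51 RPM late, without overlap. Nefl rose by 1.31, a call lost without day 3 replicate 2 or day 5 replicate 1 (edgeR adjusted p = 0.0531 to 0.0621). Map2 (-0.15) and Stmn2 (-0.07), cytoskeletal genes of mature neurons, were not called. Of the 5 glial genes tested 1, the growth factor receptor gene Pdgfra, rose (1.89), with overlap and with the call lost without 6 of the 8 single libraries, all but day 3 replicate 2 and day 5 replicate 1 (edgeR adjusted p = 0.0510 to 0.135). The myelin gene Mbp (0.29) was not called, and the list median was 0.07.

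**Figure D2:**
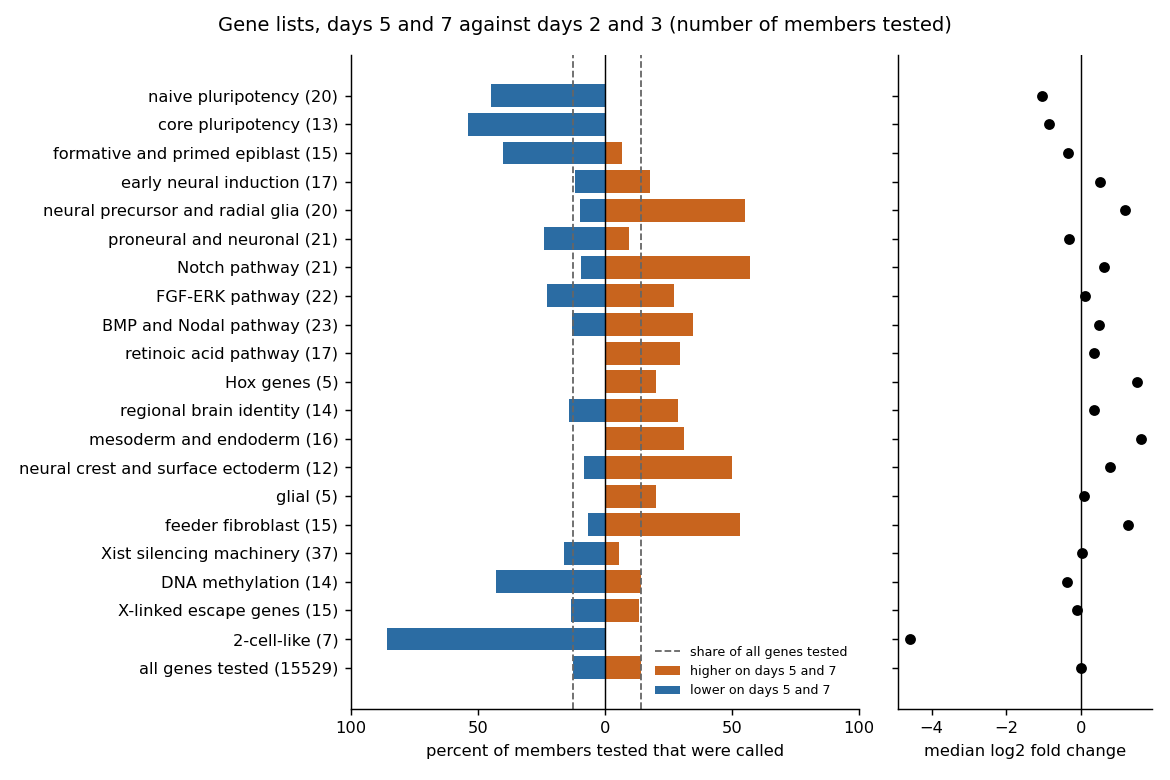
Left, percent of the tested members of each gene list called higher (to the right) or lower (to the left) on days 5 and 7, with the number tested in parentheses and dashed lines at the shares over all genes tested (14.3% higher, 12.5% lower). Right, the median log2 fold change of each list, from -4.58 (2-cell-like genes, which passed the filter through the early libraries) to 1.60 (mesoderm and endoderm genes).

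The Notch pathway shares Notch1, Notch2, Hes1, Hes5 and Lfng with the neural precursor list. Of 21 members tested 12 were higher, 2 lower and 7 not called (median 0.60), and 6 to 12 were higher without single libraries, fewest without day 3 replicate 1 (6) and 7 without day 2 replicate 1, day 2 replicate 2, day 3 replicate 2 or day 5 replicate 1. Without day 7 replicate 1, 4 were lower. The Mastermind coactivators led. Maml3 (chr3:51687612-52105006) was at 61.8, 100.7, 126 and 181 RPM early and at 423, 499.7, 1075 and 1112 RPM late, climbing with each day in both replicates (6.58-fold, log2 fold change 2.72 ± 0.18, edgeR adjusted p = 0.000266). Maml2 rose by 2.92 ± 0.26, from 2.20 to 3.65 RPM to 16.1 to 36.9 RPM. The receptor gene Notch1 was not called (0.33, and 0.47 without day 7 replicate 2 with edgeR adjusted p = 0.0226), nor was the antagonist gene Numb (0.25, block 0.26 with edgeR adjusted p = 0.0373).

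Of 22 fibroblast growth factor and ERK genes tested 6 rose, 5 fell and 11 were not called (median 0.10). Over all genes tested 14.3% were higher and 12.5% lower. The ligand gene Fgf8 rose by 3.65 ± 0.72, from 0.766, 0.545, 0.903 and 0.302 RPM to 9.49, 1.03, 17 and 6.82 RPM, with day 5 replicate 2 just above the early range. The receptor gene Fgfr3 rose by 1.58, and the immediate-early gene Fos by 1.82 with overlap and with day 7 replicate 2 (19.1 RPM) far above the others, a call lost without day 2 replicate 1 or either day 3 library (edgeR adjusted p = 0.0527 to 0.0700). Spred2 (-0.14) and Etv1 (-0.13) were not called. Leaving out 1 library gave 3 to 7 higher and 3 to 7 lower, 3 higher without day 2 replicate 1 or either day 3 library and 3 lower without day 3 replicate 2.

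In the BMP and Nodal list 8 of 23 rose, 3 fell and 12 were not called (median 0.48). The ligand gene Bmp7 went from 6.82, 9.97, 10.4 and 13.3 RPM to 24.9, 16.4, 52.7 and 39.7 RPM with no overlap (log2 fold change 1.68 ± 0.19, edgeR adjusted p = 0.00125). The BMP target gene Id3 rose by 1.39 and Lefty2, the Nodal antagonist gene, fell by 0.98. Both depended on single libraries: the call of Id3 was lost without 5 of them (all but day 2 replicate 1, day 5 replicate 2 and day 7 replicate 2, edgeR adjusted p = 0.0517 to 0.0875) and that of Lefty2 without 6, all but day 5 replicate 2 and day 7 replicate 2 (0.0674 to 0.136). The count of higher genes was 3 without day 3 replicate 2, 4 or 5 without day 2 replicate 1, day 2 replicate 2, day 3 replicate 1, day 5 replicate 1 or day 7 replicate 1, and 11 without day 7 replicate 2. The count of lower genes was 3 without day 7 replicate 2, 2 without day 5 replicate 2, 1 without day 3 replicate 1 or day 7 replicate 1, and none without either day 2 library, day 3 replicate 2 or day 5 replicate 1. Smad2 (0.27) was not called, nor was Smad5 (0.41), which was higher with the block (0.40, edgeR adjusted p = 0.0109) and without day 7 replicate 2 (0.53, edgeR adjusted p = 0.0322).

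Retinoic acid genes showed 5 higher, none lower and 12 not called among 17 (median 0.35). Aldh1a2, the main retinoic acid synthesising enzyme gene of the embryo, was at 1.46, 1.36, 1.23 and 0.906 RPM early and at 3.83, 3.14, 62.4 and 17.1 RPM late, without overlap and with nearly all of the rise on day 7 (log2 fold change 3.3 ± 0.42, edgeR adjusted p = 0.00187). The retinol transporter gene Stra6 (1.65) and the retinaldehyde reductase gene Dhrs3 (1.02) were called, but lost the call without 7 (all but day 7 replicate 2) and 6 (all but day 2 replicate 1 and day 7 replicate 1) of the single libraries (edgeR adjusted p = 0.0673 to 0.133 and 0.0644 to 0.122). Without either day 3 library 1 gene of the list was higher, without day 2 replicate 2 or day 5 replicate 1 there were 2, without day 5 replicate 2 there were 3, and otherwise 4. The nuclear receptor gene Rxra (0.35) and the homeobox gene Meis1 (0.92) were not called, although Meis1 was without day 7 replicate 2 (1.16, edgeR adjusted p = 0.0445).

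Positional genes were sparse. Of 26 Hox genes 5 passed the filter on low counts and 1 was higher. Without the filter 23 were tested and 1 was higher. Hoxd3 was at 13.5 RPM in day 7 replicate 1 and at 1.31 RPM or less in the other 7 libraries, and was not called (log2 fold change 1.68, edgeR adjusted p = 0.264), but was without day 7 replicate 2 (2.17, edgeR adjusted p = 0.00405). Hoxa3 had the same pattern, with 4.15 RPM in day 7 replicate 1 and at most 0.654 RPM elsewhere (0.95, edgeR adjusted p = 0.523). Of 14 regional brain genes tested 4 rose, 2 fell and 8 were not called, beside 14.3% higher and 12.5% lower over all genes tested. Their median was 0.35, and it ran from -0.63 without day 7 replicate 1 to 0.88 without day 3 replicate 1. Only 2 rose without day 2 replicate 2, either day 3 library or day 5 replicate 1. The 4 that rose were Fgf8, Foxa2 (3.45), Irx3 and Pax3, while Pax5 (0.59) and Irx2 (-0.23) were not called. Without the filter 5 of 29 regional brain genes rose and 2 fell (median 0.13). Pax3, a factor of the dorsal neural tube and crest, was at 0.730, 1.58, 1.16 and 0.388 RPM early and at 2.97, 0.908, 47.7 and 2.35 RPM late. Day 7 replicate 1 carried most of its log2 fold change of 2.93 ± 0.91 (edgeR adjusted p = 0.0465), which was 1.21 without that library (edgeR adjusted p = 0.134). Its call was also lost without any library of days 2, 3 and 5 (edgeR adjusted p = 0.0529 to 0.159).

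Genes of other lineages were examined as well. Of 16 mesoderm and endoderm markers tested 5 rose, none fell and 11 were not called (median 1.60), and the summed level of the list was 11.3 to 39.8 RPM early and 82.4 to 183 RPM late. With the replicate block 10 rose. Genes that are low early can pass the filter on low counts through the late libraries, and without it 7 of 20 rose and none fell (median 1.61). Without single libraries 2 (day 2 replicate 1) to 12 (day 7 replicate 2) rose, with 3 without day 2 replicate 2, either day 3 library or day 5 replicate 1, and 7 without day 5 replicate 2. Beside T, the endoderm pioneer factor gene Foxa2 rose from 0.109, 0.163, 0.0722 and 0.259 RPM to 1.29, 0.825, 2.36 and 2.51 RPM (log2 fold change 3.45 ± 0.41, edgeR adjusted p = 0.00148). The primitive streak gene Mixl1 (3.10) and the endoderm gene Sox17 (2.37) were called at 4.21 RPM or less. Sox17 overlapped and lost its call without day 2 replicate 1 (edgeR adjusted p = 0.0671), and Mixl1 without any single library but day 5 replicate 2 or day 7 replicate 2 (edgeR adjusted p = 0.0591 to 0.0808). Gata6 was higher in replicate 2 on every day, at 1.53, 9.26, 2.53 and 12.3 RPM early and 4.69, 27.9, 9.31 and 17.9 RPM late, and Gata4 behaved alike. Neither was called (1.32, edgeR adjusted p = 0.224, and 1.08, edgeR adjusted p = 0.279) but both were with the block (1.48, edgeR adjusted p = 0.00479, and 1.00, edgeR adjusted p = 0.00491).

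Of 12 neural crest and surface ectoderm genes tested 6 rose, 1 fell and 5 were not called (median 0.79). Genes that are low early can pass the filter on low counts through the late libraries. Without the filter 17 were tested, of which 6 rose and 1 fell, with a median of 0.36. Krt8 was at 2.92, 2.94, 7.30 and 6.77 RPM early and at 40.9, 66.2, 57.8 and 100.1 RPM late, with replicate 2 higher on days 5 and 7 (log2 fold change 3.88 ± 0.25, edgeR adjusted p = 0.000266). Its partner keratin gene Krt18 followed (3.17), as did the Ets-family factor gene Ets1 (2.42 ± 0.20, edgeR adjusted p = 0.000433). Epcam was not called (0.00). From 3 (without day 3 replicate 2) to 5 of the list rose without a single library, with 4 without either day 2 library, day 3 replicate 1 or either day 5 library. The feeder fibroblast list had 8 higher, 1 lower and 6 not called of 15 (median 1.26). Its summed level was 488 to 636 RPM early and 596 to 1190 RPM late. Here too, genes that are low early can pass the filter on low counts through the late libraries. Without the filter 16 fibroblast genes were tested, of which 10 rose and 1 fell, with a median below 1.26. Acta2 went from 0.182, 0.109, 0.470 and 0.561 RPM to 8.56, 4.99, 31.6 and 10.4 RPM (5.43 ± 0.48, edgeR adjusted p = 0.000484), and the collagen gene Col1a1 from 1.86, 0.926, 0.686 and 1.04 RPM to 3.79, 4.42, 13.3 and 6.38 RPM (2.56 ± 0.36, edgeR adjusted p = 0.00244). Postn rose by 2.86 from at most 0.146 RPM, overlapping, with the call lost without either day 3 library, day 5 replicate 2 or day 7 replicate 1 (edgeR adjusted p = 0.0634 to 0.249). Col3a1 (1.98) and Pdgfrb (1.38) were not called, both highest in day 7 replicate 1 (24.2 and 9.06 RPM). Both were called without day 7 replicate 2 (2.42, edgeR adjusted p = 0.000489, and 1.72, edgeR adjusted p = 0.00733) and Col3a1 also with the block (1.77, edgeR adjusted p = 0.0326). Without single libraries 5 (either day 3 library, day 5 replicate 2 or day 7 replicate 1) to 11 (day 7 replicate 2) of the fibroblast genes rose. The part of mesodermal, epithelial or fibroblast cells in these changes was not tested.

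The 2-cell-like genes, active in a rare fraction of naive cultures, were low throughout, at 4.74 RPM or less for each gene. Of the 10 in the files 7 passed the filter on low counts, which they owe to the early libraries, so the 6 called lower and the list median of -4.58 are given as a description. The fitted values also depend on the prior count, since several late libraries are at 0. Zscan4d was at 2.23, 1.09, 0.903 and 0.518 RPM early and at 0.195, 0.0825, 0.0364 and 0 RPM late. The Zscan4 genes are near-identical copies, so their separate counts are uncertain. Usp17lb was not called (block -4.50, edgeR adjusted p = 0.0304, and -5.04 without day 3 replicate 2, edgeR adjusted p = 0.0308).

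The DNA methylation list had 6 of 14 lower, 2 higher and 6 not called (median -0.38). Dnmt3l, a catalytically inactive partner of the de novo enzymes, was at 86.6, 70.9, 41.6 and 46.5 RPM early and at 17.7, 25.6, 2.36 and 6.14 RPM late (log2 fold change -2.58 ± 0.28, edgeR adjusted p = 0.00103). The 5-methylcytosine oxidase gene Tet1 fell from 1309, 1416, 932 and 1188 RPM to 389, 666, 221 and 404 RPM (-1.52 ± 0.24, edgeR adjusted p = 0.00409), and the imprint-protecting Zfp57 by 0.79. The maintenance methyltransferase gene Dnmt1 was not called (-0.28, block -0.28 with edgeR adjusted p = 0.0293).

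Each replicate was then examined by itself. Within replicate 1, with 2 libraries per period, 46 of 15041 genes were called by edgeR (0.306%), 43 higher and 3 lower, and 4195 had an unadjusted p below 0.05. Within replicate 2, 121 of 14925 were called (0.811%), 120 higher and 1 lower, and 3467 had an unadjusted p below 0.05. All 46 genes called in replicate 1 had the same sign in replicate 2, 42 of them with an unadjusted p below 0.05 and 21 called there as well. Of the 121 called in replicate 2, 120 had the same sign in replicate 1 and 114 an unadjusted p below 0.05 in that direction. Sfmbt2 was the exception. Over all 14660 genes tested in both, 76.5% had the same sign. Of 3957 genes called in the 8-library fit with a value in both replicates, 3956 had the same sign in both, a count that uses the libraries on which the calls were made.

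The replicates differed in size rather than direction for most lists. The naive pluripotency median was -1.67 within replicate 1 and -0.61 within replicate 2, and the neural precursor median was 1.66 and 0.57. The mesoderm and endoderm median was 2.49 and 1.09. The regional brain median was 1.78 in replicate 1 and -1.02 in replicate 2, over 14 and 9 genes tested. Whether the lists differed between replicates was not tested, as each day has a single library per replicate number.

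**Figure D3:**
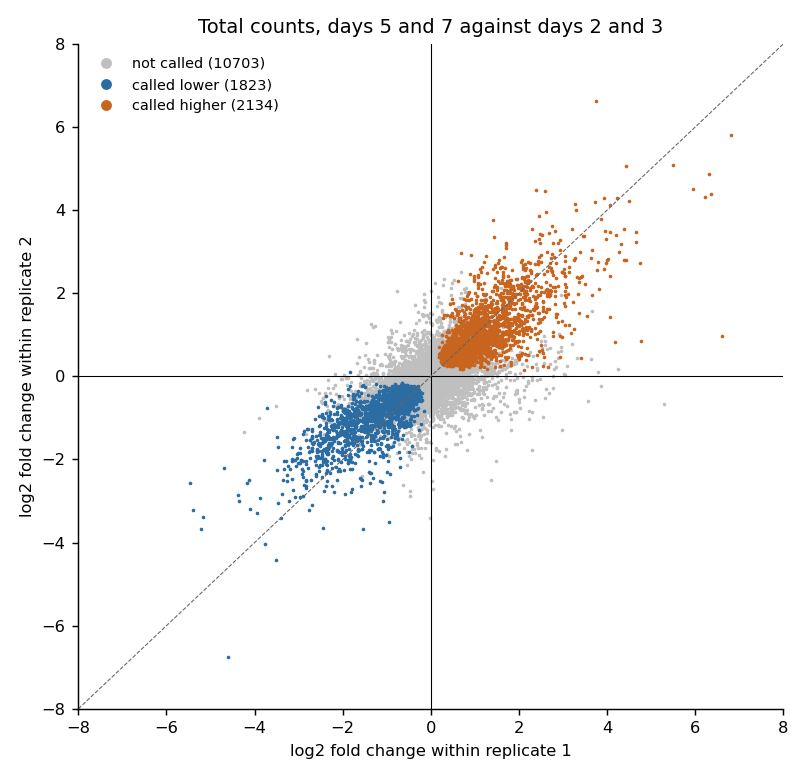
Log2 fold change of total counts, days 5 and 7 over days 2 and 3, within replicate 1 (horizontal) and within replicate 2 (vertical), with 1 point for each of 14660 genes coloured by its call in the 8-library fit, and a dashed line of equal change. The called genes lie in the quadrants of equal sign, with 1 exception, and the calls were made on these same libraries.

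The share of expression that came from the Dom X fell between the 2 periods. The allelic ratio was computed for the 246 X-linked genes that the study lists as informative in this line, the last of which ends at position 103396118 of chrX, just before Xist. Of these, 234 had at least 10 allelic fragments in each of the 8 libraries. Their median ratio was 0.233, 0.196, 0.155 and 0.102 on days 2 and 3 and 0.0509, 0.0450, 0.0165 and 0.0186 on days 5 and 7. It declined with every day in both replicates, and the periods did not overlap. The mean over libraries was 0.171 ± 0.056 (SD, n = 4) early and 0.0327 ± 0.0178 (SD, n = 4) late, a difference of -0.139 (exact two-sided permutation test over 70 arrangements, p = 0.0286, the smallest they can give). Over all X-linked genes with at least 10 allelic fragments, listed or not, the change was smaller, from 0.0887 to 0.0165 (difference -0.0723, exact permutation p = 0.0286). By the study's account only part of the X can be read by allele in this line, and its list ends before Xist. Unlisted genes past Xist lie outside that part, and their ratio is not a measure of silencing. Of 163 unlisted X-linked genes tested on the ratio, 2 were called, so the smaller change is not read as a result about them. The exact permutation within replicate numbers gave p = 0.0556, the smallest its 36 arrangements can give. The difference was -0.160 within replicate 1 and -0.117 within replicate 2. In the same libraries the median of autosomal genes stayed between 0.508 and 0.519, and in the uninduced libraries of KO clone A3, which comes from this line, the listed genes had medians of 0.514 and 0.512.

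Xist rose over the same days. Its level (chrX:103460372-103483233) was 5048, 5588, 7648 and 8899 RPM on days 2 and 3 and 10985, 13910.5, 16636 and 15161 RPM on days 5 and 7, against 152 and 131 RPM in the uninduced A3 libraries. The mean log2 RPM differed by 1.08, or 2.12-fold (exact two-sided permutation test, p = 0.0286, the smallest possible). The difference was 1.12 within replicate 1 and 1.04 within replicate 2, and the exact permutation within replicate numbers gave p = 0.0556. Of the allelic Xist fragments 99.9% were on Dom in each of the 8 libraries. Tsix, the antisense partner that overlaps Xist and that the strand-specific counting separates from it, went from 266, 285, 191 and 229.7 RPM to 133, 185, 89.7 and 152 RPM (log2 fold change -0.75 ± 0.19, edgeR adjusted p = 0.0213), a call lost without either day 2 library, day 3 replicate 2 or day 5 replicate 1 (edgeR adjusted p = 0.0593 to 0.0740).

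**Figure D4:**
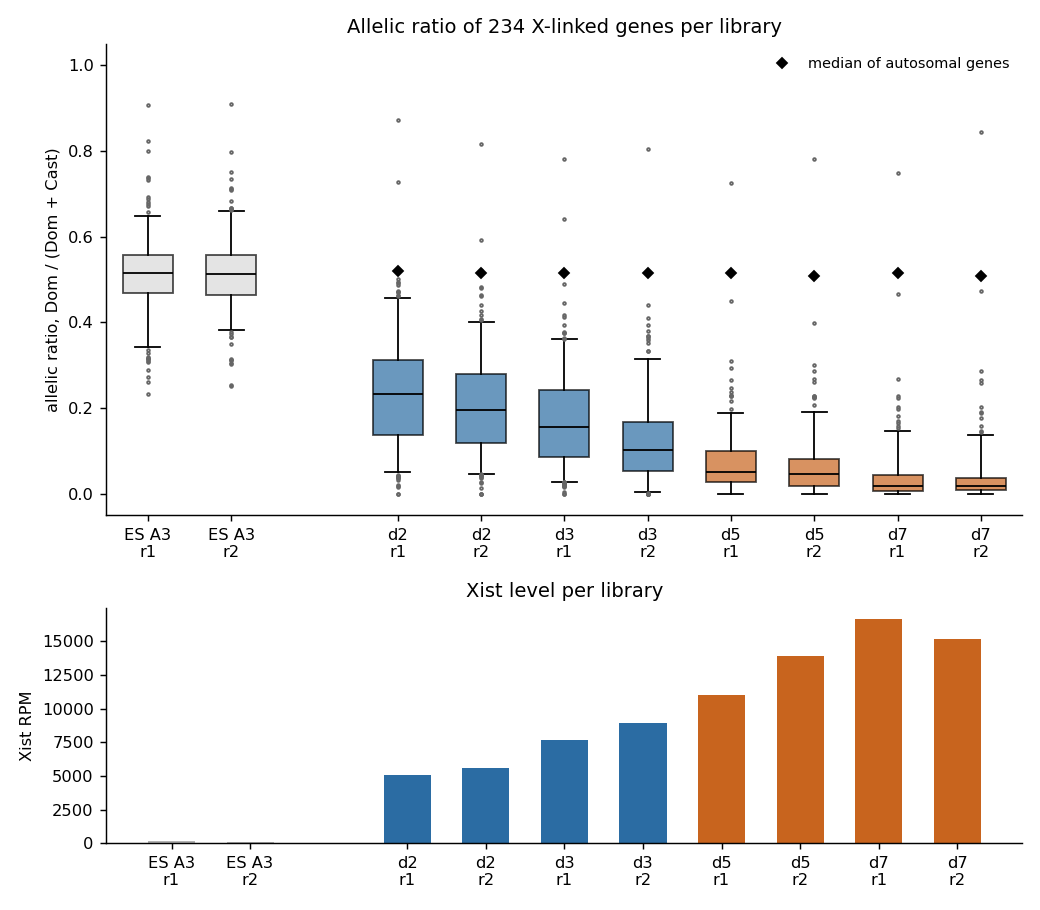
Top, allelic ratio Dom/(Dom+Cast) of the 234 X-linked genes in each library (boxes, quartiles and median; whiskers, 5th and 95th percentiles; points, genes beyond them), with uninduced clone A3 in grey, days 2 and 3 in blue, days 5 and 7 in orange, and diamonds at the autosomal median. Bottom, Xist RPM in the same libraries. The median ratio fell from 0.233 in day 2 replicate 1 to 0.0165 and 0.0186 on day 7 while Xist rose from 5048 to 16636 and 15161 RPM.

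Gene by gene, 144 of the 234 X-linked genes (61.5%) were called lower by limma on the ratio, none was called higher, and 90 were not called, 89 of them with a lower mean. Over all 12135 genes tested 3.96% were called lower, and over the 11738 autosomal genes 2.85%, and the 163 other X-linked genes were outside the list. The libraries of the 2 periods did not overlap, with the late ones lower, in 187 X-linked genes (79.9%) and in 6.85% of autosomal genes. The median difference was -0.126 for X-linked and 0.00 for autosomal genes. Within a single replicate limma called none of these X-linked genes, but 240 of 241 in replicate 1 and 232 of 239 in replicate 2 had a lower mean. In replicates 1 and 2, 170 and 132 of the X-linked genes had an unadjusted p below 0.05, beside 14.6% and 11.7% of the autosomal genes in the same fits. The number of the 234 genes with a ratio below 0.1 was 43, 47, 75 and 115 on days 2 and 3 and 173, 197, 213 and 216 on days 5 and 7, and the number above 0.3 went from 67, 44, 30 and 13 to 3, 2, 2 and 2.

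The largest fall was at Efhc2, a gene for an EF-hand protein (chrX:17132048-17319368). Its ratio was 0.727, 0.592, 0.641 and 0.364 early and 0.148, 0.206, 0.0638 and 0.0566 late, on at least 34 allelic fragments per library (difference -0.462 ± 0.063, limma adjusted p = 0.00582). All 4 early libraries lay below the 0.738 and 0.799 of uninduced A3, where the gene is Dom-biased, and day 3 replicate 2 lay far below. Mamld1, linked to male sexual development, went from 0.420, 0.382, 0.273 and 0.368 to 0.0471, 0.0877, 0.0101 and 0.00813 on at least 19 fragments (-0.323 ± 0.034, limma adjusted p = 0.00217). The more deeply covered Rbm3, a cold-inducible RNA-binding protein gene with at least 738 fragments, went from 0.407, 0.402, 0.351 and 0.270 to 0.128, 0.0623, 0.0479 and 0.0285 (-0.291 ± 0.020, limma adjusted p = 0.000565). The other 7 of the 10 largest falls were Wdr13 (-0.320), Fundc1 (-0.287), the clotting factor gene F8 (-0.270), the H3K9 methyltransferase gene Suv39h1 (-0.268), Timp1 (-0.263), Ndufb11 (-0.256) and Araf (-0.249). The call of Timp1 was lost without day 3 replicate 1, day 5 replicate 1 or day 7 replicate 1 (limma adjusted p = 0.0501 to 0.0676).

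How much of the early ratio was left varied little along the chromosome. Over the 234 genes the late ratio was a median of 21.0% of the early one (quartiles 15.8% and 30%), with 149 genes under 25% and 7 over 75%. Genes farther from Xist had higher ratios in both periods. Within 20 Mb of Xist the median ratio was 0.0982 early and 0.0180 late (52 genes), at 20 to 40 Mb 0.173 and 0.0312 (62 genes), at 40 to 70 Mb 0.141 and 0.0283 (53 genes), and beyond 70 Mb 0.246 and 0.0569 (67 genes). Across genes, distance had a Spearman rho of 0.40 with the early ratio, 0.31 with the late ratio and 0.07 with the percent left. The corresponding percents left were 20.6, 19.5, 21.4 and 21.8. The order of genes was kept, with a rho of 0.84 between the early and the late ratio. Genes share libraries and are not independent replicates, so these values are descriptions.

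The highest late ratios were those of Dynlt3 and Slc25a5, whose Dom-allele counts were not called (-0.02 and -0.46 on the log2 scale). Dynlt3, a dynein light chain gene (chrX:9654269-9662983), had a ratio of 0.873, 0.817, 0.782 and 0.805 early and of 0.726, 0.781, 0.748 and 0.845 late on at least 240 fragments, overlapping and not called (-0.045 ± 0.027, limma adjusted p = 0.453). In uninduced A3 it was at 0.908 and 0.91, just past the upper limit that the study set for uninduced cells. The study regarded strongly monoallelic genes beyond its limits as likely artifacts of mis-annotated SNPs. Dynlt3 is in its list of informative genes, but how much of its expression came from Dom is uncertain. Slc25a5, an ADP/ATP carrier gene, was at 0.495, 0.405, 0.489 and 0.441 early and 0.451, 0.398, 0.465 and 0.472 late (-0.011 ± 0.025, limma adjusted p = 0.881), the only other gene with a mean above 0.3 on days 5 and 7. Nono, a paraspeckle protein gene, went from 0.318, 0.297, 0.261 and 0.250 to 0.228, 0.228, 0.203 and 0.285, where day 7 replicate 2 overlapped the early libraries (-0.045, limma adjusted p = 0.221, and -0.066 without that library, limma adjusted p = 0.029). It was also called in a fit over the listed genes alone (limma adjusted p = 0.0486), and its Dom-allele counts fell by 0.49 (edgeR adjusted p = 0.0416). The ribosomal protein gene Rpl10 was lower (0.381 early, 0.245 late on average), a call lost without either day 3 library, either day 5 library or day 7 replicate 1 (limma adjusted p = 0.0630 to 0.103), and its Dom-allele counts fell by 1.20 on the log2 scale. Rpl10 and Slc25a5 have processed copies elsewhere in the genome, so their reads may be shared. The next highest late means were Pnma5 (0.228, not called), Zfx (0.225), Wdr44 (0.216), Kdm6a (0.213), Pin4 (0.197) and Rbmx2 (0.191), and all but Pnma5 were called lower. Pnma5 was called in the fit over the listed genes alone (limma adjusted p = 0.0103), and its Dom-allele counts fell by 2.03. Wdr44 was called only with all 8 libraries (limma adjusted p = 0.0546 to 0.133 without any one).

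Genes known to escape X inactivation in mouse lost Dom expression as well. Of 15 on the escape list 6 were among the 246 informative genes, and all 6 were called lower, with 17.6% to 54.8% of the early ratio left against a median of 21.0% over the 234 genes. Kdm6a (Utx), an H3K27 demethylase gene, was at 0.488, 0.462, 0.444 and 0.410 early and at 0.293, 0.267, 0.134 and 0.158 late on at least 5734 fragments, leaving 47.3% (difference -0.238 ± 0.011, limma adjusted p = 0.000202). Eif2s3x, a translation initiation factor gene, kept 54.8%, from 0.314, 0.323, 0.288 and 0.277 to 0.215, 0.138, 0.158 and 0.146 (-0.136 ± 0.017, limma adjusted p = 0.00413). Utp14a kept 44.3%, the RNA helicase gene Ddx3x 37.0%, the ubiquitin-activating enzyme gene Uba1 31.4% and Shroom4 17.6%. Whether the escape genes differ from other genes was not tested. In total counts 2 of the 15 were higher (Mid1, 0.72, among them), 2 lower (Utp14a, -0.96, and 5530601H04Rik, -0.40) and 11 not called, Kdm6a (-0.34) and Ddx3x (-0.17) among them (median -0.10). These shares are near those over all genes tested, of which 14.3% were higher and 12.5% lower. The calls of Mid1 and 5530601H04Rik were each lost without 6 single libraries, all but day 2 replicate 1 and day 7 replicate 2 for Mid1 and all but day 2 replicate 2 and day 7 replicate 2 for 5530601H04Rik (edgeR adjusted p = 0.0570 to 0.0991 and 0.0628 to 0.120). With the block 4 were lower, and without single libraries 1 or 2 were higher and 1 to 3 lower.

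At the other end, 58 of the 234 genes had a mean ratio below 0.1 already on days 2 and 3. The 5 with the lowest early means were nearly silent on Dom. Among them were Smarca1, Stard8, Gm7173 and Tmem28, each with an early ratio of 0.0588 or less in every library. With so little left, a further fall was not detectable at this depth, and none of the 5 was called on the ratio.

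Counting each allele separately showed which of them moved. On the Dom allele 196 of the listed genes passed the filter on low counts. All 196 had a negative log2 fold change, 182 were called lower, none higher and 14 not called. The median was -2.56, a 5.92-fold fall, against -0.02 for autosomal genes, of which 11.6% were lower and 11.6% higher on this allele. Genes nearly silent on Dom in all libraries did not pass the filter and are not in these counts. A gene could pass it on the early libraries alone, as Kis2 did. The counts and the median therefore describe genes selected in part by a high early level on Dom. Summed over the 246 genes, Dom-allele expression was 2046, 1440.2, 1382 and 849.8 RPM early and 534, 392, 218 and 228 RPM late. The largest falls among called genes were at Kis2 (-6.00), Gm364 (-5.39), Fundc2 (-5.29), the microtubule gene Mtap7d3 (-4.31) and the cationic amino acid transporter gene Slc7a3 (-4.21). For Kis2 there was no Dom fragment in any of the 4 late libraries, so its fitted change depends on the prior count and is no bound. Within replicate 1, 58 of 184 listed genes were called lower (median -2.57) and within replicate 2, 35 of 159 (median -2.25), with none higher in either.

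The Cast allele, on the active X, showed no such shift. All 246 genes were tested, 22 were lower, 28 higher and 196 not called, with a median of 0.08 against 0.01 for autosomal genes. Of autosomal genes 9.38% were lower and 11.9% higher on this allele, shares near those of the X-linked genes. Summed Cast-allele expression was 6372, 5666, 6192 and 5921 RPM early and 6320.3, 5957, 6316 and 5965 RPM late, with replicate 1 above replicate 2 on each day. The genes that fell on Cast were led by the exchange factor gene Mcf2 (-2.09), Nr0b1 (-1.77), Mtap7d3 (-1.67), Fmr1nb (-1.66) and Pdzd4 (-1.62), and those that rose by Dgkk (2.34), Mamld1 (2.21), the ERK phosphatase gene Dusp9 (2.05), the ferroxidase gene Heph (2.03) and the actin crosslinker gene Flna (1.26). Dusp9 lost its call without either day 2 library, day 3 replicate 1 or day 5 replicate 2 (edgeR adjusted p = 0.0675 to 0.0858) and Nr0b1 without day 2 replicate 1 (0.0587). The number of called genes was 50, and 79 with the replicate block. Without day 2 replicate 1, day 3 replicate 1, day 3 replicate 2 or day 5 replicate 1 it was 28, 23, 28 and 33. Within replicate 1 there were 8 lower and 7 higher, within replicate 2 none lower and 4 higher. Mcf2, with a Dom fall of 3.31 and a Cast fall of 2.09, and Mamld1, with a Dom fall of 2.09 and a Cast rise of 2.21, are cases where both alleles were called. The ratio of Mcf2 was not called (-0.062 ± 0.034, limma adjusted p = 0.396) and its periods overlapped, but it passed with the replicate block (limma adjusted p = 0.00301).

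**Figure D5:**
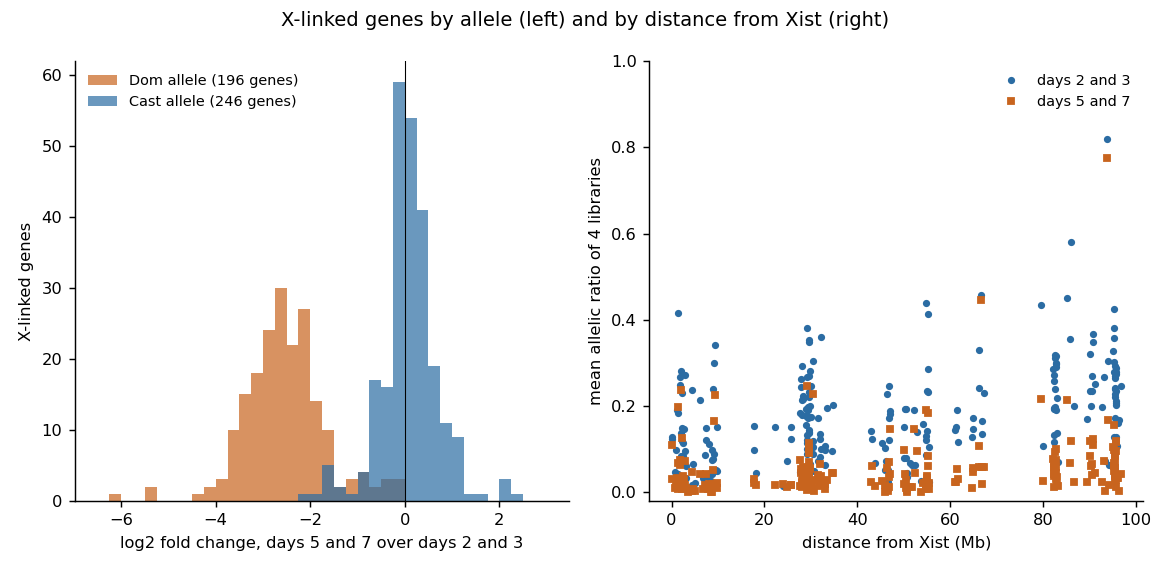
Left, number of listed X-linked genes by log2 fold change (days 5 and 7 over days 2 and 3) of the Dom allele (196 genes, median -2.56) and the Cast allele (246 genes, median 0.08). Right, mean allelic ratio of each of the 234 genes in the 4 early and the 4 late libraries against its distance from Xist in Mb, where the late medians lie below the early ones in every distance bin of the text and Dynlt3 (0.775) and Slc25a5 (0.447) stand above the rest of the late values.

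Added over both alleles the change was small. In total counts 47 of the 246 genes were lower, 26 higher and 173 not called. Over all genes tested 12.5% were lower and 14.3% higher. The median of the 246 genes was -0.16 against 0.01 for autosomal genes. Of 37 genes of the Xist silencing machinery tested 2 rose, 6 fell and 29 were not called (median 0.01). The shares over all genes were the same 14.3% higher and 12.5% lower. With the block 6 of the 37 rose and 10 fell, and with library totals 2 rose and 10 fell. Xist and the PRC1 cofactor gene Yaf2 (1.07 ± 0.16, edgeR adjusted p = 0.0032) were the genes that rose. Jarid2, the PRC2 cofactor gene, went from 1991, 1684, 1577 and 1758 RPM to 1026, 1236, 864 and 982 RPM without overlap (-0.74 ± 0.14, edgeR adjusted p = 0.00778). The number that fell was 1 to 3 without day 2 replicate 1, day 2 replicate 2, either day 3 library or day 5 replicate 1. Smchd1 was at 534, 516, 585 and 523 RPM early and 628, 560.2, 572 and 574 RPM late and was not called (0.15, edgeR adjusted p = 0.3), nor were the repressor gene Cdyl (-0.38, block -0.39 with edgeR adjusted p = 0.0280, and -0.51 without day 5 replicate 2, edgeR adjusted p = 0.0298) and Atrx (-0.09).

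The same contrast was set against the other lines as a test of the difference itself. Against WT cells of the reciprocal iXist-ChrX-Cast line (11 libraries of the same days, Xist induced on the Cast X), 42 of 15954 genes differed in total counts (0.263%), 32 with a larger and 10 with a smaller log2 change in iXist-ChrX-Dom, and 2036 had an unadjusted p below 0.05. The count was 0 without day 2 replicate 2 or day 3 replicate 1 of iXist-ChrX-Dom or without day 2 replicate 1, day 3 replicate 1 or day 3 replicate 3 of iXist-ChrX-Cast, and 64 at most. With the replicate block it was 777. The neuronal genes Myt1l and Miat are examples. Myt1l went from a mean of 13.1 to 10.5 RPM in iXist-ChrX-Dom and from 21.8 to 1.78 RPM in iXist-ChrX-Cast (difference of log2 changes 2.97 ± 0.40, edgeR adjusted p = 0.0227), and Miat from 15.5 to 10.97 and from 47.8 to 4.93 RPM (2.59 ± 0.48, edgeR adjusted p = 0.0346). Both lost the call without several libraries, as given in the closing part. The allelic ratio was taken as the Xi share for X-linked genes and as the Dom share in both lines for autosomal genes, and it differed for 15 of 11405 genes (0.132%), 11 of them among 226 listed X-linked genes and 4 autosomal. With the replicate block 66 of all genes differed. Efhc2 had a mean ratio of 0.581 early and 0.119 late here and of 0.0490 and 0.0198 in the reciprocal line (difference -0.433 ± 0.059, limma adjusted p = 0.0018), a call lost on the log2 scale (limma adjusted p = 0.355). Lines and time courses cannot be told apart in this comparison.

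Against SmcHD1 KO clone A3 (8 libraries of the same days) edgeR called none of 15941 genes in total counts (0.0%), with 741 at an unadjusted p below 0.05, and DESeq2 called 15. For the ratio limma called none of 11854 genes (0.0%), with 552 at an unadjusted p below 0.05, none of the 232 listed X-linked genes among the calls, and 10 calls on a log2 scale. Without day 7 replicate 1 of A3 the counts were 42 and 11.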

How the data were processed

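ChrRNA-seq count files of 8 iXist-ChrX-Dom WT libraries were used, with 11 iXist-ChrX-Cast WT libraries and 10 of SmcHD1 KO clone A3 (2 uninduced) for comparison. Per the study's methods and the file headers, the authors removed rRNA reads with Bowtie2 2.3.2, aligned to N-masked mm10 with STAR 2.4.2a, assigned alleles with SNPsplit and deposited unnormalised, strand-specific featureCounts counts of fragments over whole transcripts, in total and per allele. The authors' list of 246 X-linked genes was taken from their ratio table. Its 26 value columns were not used, and ratios were computed here from the counts.

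Total counts were fitted with edgeR 4.0.16 (R 4.3.3; filterByExpr, TMM, quasi-likelihood F-test) with day as a 4-level factor. The contrast set the mean of days 5 and 7 against that of days 2 and 3, with Benjamini-Hochberg adjustment over all genes tested. Ratios were fitted with limma 3.58.1 for genes with at least 10 allelic fragments in each of the 8 libraries, and allele counts with edgeR on TMM-scaled total library sizes. Differences between lines were interaction terms. Alternatives were DESeq2 1.42.0, library totals, no filter, period as the only factor, a replicate block, each replicate alone, each library left out, and a log2 or count model of the ratio. The fits were tested on simulated data. Same-numbered libraries deviated together (correlation of replicate differences between days 0.137 to 0.636, 6 pairs), so the numbers were taken to pair them, and replicates of a day differed by more than counting noise (chi-square per degree of freedom 29.5 to 65.2). The named genes were the 10 largest rises and falls with at least 5 RPM, no overlap and the same sign in both replicates, up to 4 called and 2 uncalled genes per list, the extremes of the ratio and allele fits, and a fixed set of markers. The libraries, genes and 20 lists (413 entries, 4 absent from the files) were chosen with earlier results of these data known. A few genes that these rules name are not reported here.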

Additional observations from a re-analysis of the deposited data

Results flagged for a closer look

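The change from days 2 and 3 to days 5 and 7 differed between iXist-ChrX-Dom and the reciprocal line for 42 genes in total counts (edgeR interaction term), and the 5 largest differences in each direction among genes of at least 5 RPM are given here as mean RPM. Genes with higher late than early means in iXist-ChrX-Cast, and a smaller or opposite change here, were Kitl, the ligand of the Kit receptor (26 to 24.8 RPM here, 10.8 to 44.8 there, difference of log2 changes -2.16), the phospholipase gene Pld1 (38.5 to 25, against 25.3 to 47.9, -1.56), the adaptor gene Gab1 (362 to 265, against 99.7 to 197, -1.53), the X-linked Fhl1 (50.8 to 63.3, against 62.0 to 188, -1.45) and the acetyl-CoA synthetase gene Acss2 (10.4 to 10.2, against 5.74 to 13, -1.31). In the other direction were genes with lower late means in iXist-ChrX-Cast: the neuronal factor gene Myt1l (13.1 to 10.5 here, 21.8 to 1.78 there, difference 2.97), the kinase gene Brsk2 (8.30 to 6.04, against 6.24 to 0.702, 2.77), the non-coding Miat (15.5 to 10.97, against 47.8 to 4.93, 2.59), the GABA receptor subunit gene Gabrg3 (24.6 to 33.1, against 51.8 to 14.2, 2.17) and Fam155a (44.7 to 127, against 70.9 to 32.9, 2.66). Each of the 10 lost its call without single libraries, from 5 of 19 for Myt1l to 15 of 19 for Gabrg3.

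The allelic ratio differed for 15 genes (limma interaction term), taken as the Xi share for X-linked and as the Dom share in both lines for autosomal genes. The early Xi ratio was higher here at Efhc2 (0.581 to 0.119 here, 0.0490 to 0.0198 in iXist-ChrX-Cast, difference -0.433), Mamld1 (0.361 to 0.0383, against 0.0531 to 0.0115, -0.276) and F8 (0.292 to 0.0223, against 0.0508 to 0.00764, -0.224), and lower here at Lancl3 (0.0627 to 0.0167, against 0.234 to 0.0294, 0.181) and Klhl13 (0.107 to 0.0256, against 0.341 to 0.148, 0.118). On a log2 scale the calls of Efhc2, Mamld1, F8 and Lancl3 were lost (limma adjusted p = 0.355 to 0.685). Among autosomal genes the Dom share differed at Scn3a (0.766 to 0.776, against 0.567 to 0.885, -0.312), Col11a1 (0.624 to 0.555, against 0.433 to 0.602, -0.242), Myom1 (0.460 to 0.597, against 0.692 to 0.554, 0.269) and Gpm6a (0.315 to 0.356, against 0.514 to 0.445, 0.110). For the X-linked genes the Xi is the Dom X in one line and the Cast X in the other. Myom1 lost its call without 15, Gpm6a without 12, Scn3a without 7 and Klhl13 without 4 of 19 single libraries.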

How the results depend on the processing

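Called genes in total counts numbered 4158, of which 4007 were also called with DESeq2 (4548 called), 3884 with library totals (4095), 3912 without the filter (4299) and 4157 with the replicate block (6087). A minimum fold of 1.5 left 1286, and single replicates 46 and 121. The block gave -0.139 for the median ratio and 1.08 for log2 Xist, both at an exact permutation p of 0.0556, the smallest possible. Single replicates gave 0 and 0 called X-linked ratios, 58 and 35 Dom-allele genes and 15 and 4 Cast-allele genes, and the block 79 Cast-allele genes. For the interaction with iXist-ChrX-Cast, DESeq2 called 307 genes, library totals 96, no filter 75 and the block 777 in total counts. For its ratio a log2 scale called 1 and the block 66, and Klhl13 reversed on the log2 scale (-1.03, limma adjusted p = 0.839). For the interaction with A3, DESeq2 called 15 in total counts and a log2 scale 10 in the ratio. With the block 1 retinoic acid gene and 1 glial gene were lower, against none in the main fit. Beside these and the lists named above, the block moved none of these counts by over 1.5 times. The causes were not tested.

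Leaving out 1 library in turn gave 2225 to 4072 genes in total counts (2225 and 2343 without day 3 replicates 1 and 2, 2610 without day 5 replicate 1), 98 to 126 ratios, 159 to 180 Dom-allele and 23 to 53 Cast-allele genes. The median ratio changed by -0.162 to -0.118 (exact permutation p = 0.0571 without any late library) and log2 Xist by 0.952 to 1.22. Interactions with iXist-ChrX-Cast ran from 0 to 64 in total counts and 7 to 17 in the ratio (7 without day 5 replicate 1 of iXist-ChrX-Dom, 9 without either day 2 library of iXist-ChrX-Cast), and with A3 from 0 to 42 and 0 to 11. In these fits the lone library of a day is assumed to vary like the others. With 2 replicates per day and 1 clone, p-values cover the spread between these libraries.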
